A study of Homo sapiens with 2 samples.

Results

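The 35 genes described here encode ribosome biogenesis factors, and they were taken by name from a list of nucleolar proteins. The list was chosen with earlier results of these data known, so counts set against a background below describe the set and do not test it. All 35 were among the 16387 genes listed in both count tables, which held 17830 and 16740 genes. The study used MCF10A, an immortalised but non-tumorigenic human breast epithelial cell line, and single-cell RNA sequencing. Cells of 8 conditions were marked with sample tags, pooled and sequenced as 1 library, and the whole was done as 2 replicate libraries. The conditions were unstimulated cells, cells given epidermal growth factor (EGF) and taken at 15 h, and cells taken at 20 h or 30 h after EGF with no inhibitor, with a MEK inhibitor or with a PI3K inhibitor. Both inhibitors were added 15 h after EGF, so that all inhibited cells had also been stimulated. Neither inhibitor is named in the labels, nor is its dose. MEK is the kinase that activates ERK, and PI3K acts upstream of AKT and mTOR, so the comparisons ask which part of the growth factor response of these genes needed each kinase after 15 h.

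Ribosomes are assembled in the nucleolus. RNA polymerase I makes a long precursor RNA, small nucleolar ribonucleoproteins (snoRNPs) guide its chemical modification, and a series of processing and assembly factors cut it and fold it with ribosomal proteins into a small and a large subunit. Growth factor signalling through ERK, mTOR and the transcription factor MYC is known to raise the production of this machinery in growing cells. The 35 genes cover RNA polymerase I (2 genes), box C/D snoRNPs, which methylate ribose (3), box H/ACA snoRNPs, which make pseudouridine (4), nucleolar scaffolds and chaperones (3), small subunit processing (9), large subunit assembly (12) and other nucleolar proteins (2). A transcript level says nothing of the rate at which ribosomes are made.

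The libraries held 2616 and 2221 cells with median depths of 12259 and 12332 unique molecular identifiers (UMIs, 1 per captured RNA molecule), and they shared 0 cell barcodes. All 8 breast epithelial markers looked for were detected, with KRT5 at 2807 and 4171 and KRT14 at 8883 and 10534 CPM (a gene's counts scaled to a fixed library total) in libraries 1 and 2. The lowest of them, TP63, was at 10.1 and 13.6 CPM. Luminal markers were found as well, KRT18 at 422 and 452 CPM, KRT8 at 63.4 and 100 and ESR1 at 0.121 and 0.280, while PGR was not listed. PTPRC and CD3E of blood cells, HBB of red cells, VWF and CDH5 of endothelium and COL1A2 of fibroblasts were not listed, while other markers of such cells were detected at low levels. DCN of fibroblasts was at 24.5 and 13.9 CPM, CD68 of macrophages at 6.07 and 4.06, COL1A1 at 1.03 and 1.61, PECAM1 of endothelium at 0.695 and 0.561 and PDGFRB at 0.0604 and 0.0701. Counts were summed by condition and library into 16 sums of 213208 to 8508781 UMIs, and the smallest, unstimulated cells of library 2, came from 29 cells. Levels below are CPM scaled for composition, with library 1 before library 2. Changes are log2 fold changes with their standard error (SE), and a gene was called where the adjusted p of edgeR's quasi-likelihood test over 11147 genes was under 0.05. All 35 genes passed the filter on low counts. Each condition had 1 sum in each of 2 libraries, which the labels present as replicates. The fit took out the mean difference between the libraries (the library block). The p-values therefore measure how far differences between conditions varied from 1 library to the other. That spread was pooled over all 16 sums and moderated by the spread of other genes.

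Upstream sequence was available for 29 of the 35 genes in the RefSeq promoter table (GRCh38.p14), read here as the 250 bases before the listed start. A motif bound by ETS factors, a family that includes direct ERK targets, was searched as CCGGAAG on both strands (CTTCCGG on the other). It stood in 10 of 29 windows (34.5%), against 8.82% of all 27305 windows in the table and 15.2% of the 11132 windows whose genes were in both count tables. The sites are shown because the genes moved with an inhibitor of the kinase above ERK, although 9 of the 10 were also called lower with the PI3K inhibitor at each time. Each line gives 30 bases in the direction of the gene, with the motif in capitals.
DDX21: tcctgcttcccCCGGAAGtgccttgctacg
GRWD1: gaaagcgaaacCCGGAAGtgacgctcttac
GAR1: ttgccgcagcaCTTCCGGgacgtcgtgctg
NOP16: cttgtgcacgcCTTCCGGAAGgagtttgtt
NOP10: ggagagagagaCTTCCGGttatgcaggaag
TSR1: gaCCGGAAGcgcttgtcctggcCCGGAAGc
The DDX21 site lay at chr10:68956099-68956128 on the plus strand, 60 bases before the start, and that of GRWD1 at chr19:48445948-48445977, 24 bases before it. The NOP16 window, chr5:176388599-176388628 on the minus strand, held 2 overlapping matches on opposite strands, 19 and 16 bases before the start. The TSR1 window, chr17:2336458-2336487 on the minus strand, held 2 separate matches, 28 and 8 bases before it. GAR1 (chr4:109815471-109815500, plus) and NOP10 (chr15:34343160-34343189, minus) carried the reverse letters. The other 4 genes with the motif were FBL, NIP7, POLR1B and RRP9. With the MEK inhibitor at 30 h the median log2 change was -0.77 over the 10 genes with the motif and -0.88 over the 19 without it, and at 20 h it was -0.64 and -0.41. With the PI3K inhibitor the medians with and without the motif were -0.51 and -0.48 at 20 h, and both were -0.48 at 30 h. Starts are those of RefSeq, and some GENCODE transcripts begin further upstream. A match describes the letters only, and whether any factor binds there was not measured.

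A palindrome found in some housekeeping promoters, TCGCGAGA (TCTCGCGA on the other strand), stood in 3 of the 29 windows (10.3%), against 1.05% of all windows in the table and 1.98% of those of genes in both count tables. The 3 genes were NPM1, NOP14 and TSR1, and the first 2 are shown because they were not among the genes called lower with the PI3K inhibitor (below). TSR1 was called lower with that inhibitor at both times, although its call at 20 h was lost without the library block (adjusted p = 0.12). In NOP14 a pair of overlapping matches lay 19 and 17 bases before the start and a further match 46 bases before it.
NPM1: ttgggaagcgcTCGCGAGAtcttcagggtc
NOP14: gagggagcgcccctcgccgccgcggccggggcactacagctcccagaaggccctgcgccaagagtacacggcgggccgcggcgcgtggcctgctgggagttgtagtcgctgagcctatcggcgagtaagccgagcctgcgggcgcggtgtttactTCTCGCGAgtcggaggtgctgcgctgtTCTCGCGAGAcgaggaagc
The NPM1 window was chr5:171387792-171387821 on the plus strand, with the match 46 bases before the start. The NOP14 stretch was chr4:2963407-2963607 on the minus strand, from the listed start up to the next annotated exon. The E-box CACGTG, its own reverse and a motif that MYC can bind, stood in 3 windows (10.3%, in NAT10, NOP10 and UTP20), against 6.49% of all windows and 8.62% of those of genes in both count tables. The promoter stretches of LYAR, with the deepest fall described below, and of DDX21, next after it with the MEK inhibitor at 20 h, are given up to the first annotated exon base.
LYAR: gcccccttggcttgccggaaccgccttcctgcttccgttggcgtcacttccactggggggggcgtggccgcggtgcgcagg
DDX21: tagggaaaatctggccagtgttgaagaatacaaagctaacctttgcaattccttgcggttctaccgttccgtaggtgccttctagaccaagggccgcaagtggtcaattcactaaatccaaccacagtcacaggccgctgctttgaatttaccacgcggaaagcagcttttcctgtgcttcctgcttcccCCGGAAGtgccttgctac
The LYAR stretch (chr4:4290170-4290250, minus strand) held none of these motifs, and the DDX21 stretch (chr10:68955920-68956127, plus strand) held the ETS site shown above.

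EGF raised most of the factors by 15 h. Of the 35 genes 29 were higher than in unstimulated cells and 0 were lower, against a background of 14.1% of all tested genes higher and 13.9% lower, and their median log2 change was 0.90, against 0.02 over all tested genes. LYAR, a nucleolar zinc finger protein that takes part in pre-rRNA processing, rose from 38.8 and 57.4 CPM to 149 and 112 CPM (1.74, SE 0.20, adjusted p = 1.8e-09). NAT10, the acetyltransferase of small subunit rRNA, went from 9.28 and 13.3 to 33.3 and 24.1 CPM (1.68, SE 0.37). UTP20, a component of the small subunit processome, went from 11.8 and 4.42 to 30.2 and 31.2 CPM (1.52, SE 0.34). In these genes both stimulated sums lay above both unstimulated sums, although the unstimulated sum of library 2 held 1 UMI of UTP20 and 3 of NAT10. Such a separation upward was found in 30 of the 35 genes and in 27.4% of all tested genes. RRP12, which serves the export of pre-ribosomes, was at 5.90 and 22.1 CPM without EGF and at 26.8 and 25.6 CPM with it (1.64, SE 0.39), a wide gap in library 1 and a narrow one in library 2.

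By role, EGF raised 3 of 3 box C/D genes and 4 of 4 box H/ACA genes. It raised 9 of 9 small subunit and 9 of 12 large subunit genes. Both other nucleolar genes and 2 of 3 scaffold genes were also raised, but 0 of 2 RNA polymerase I genes were. Of the 29 called genes 28 had the same sign in both libraries, and the exception was NOP14 of the small subunit group. Its mean was 43.0 CPM (SD 20.3) without EGF and 52.7 CPM (SD 2.25) with it. The NOP14 call was lost without the library block (adjusted p = 0.11) and with DESeq2 (0.082). FBL, the methyltransferase of box C/D snoRNPs, rose from 196 and 146 to 262 and 248 CPM (0.49, SE 0.13), and NHP2, a core protein of box H/ACA snoRNPs, from 300.2 and 300.3 to 441 and 335 CPM (0.44, SE 0.12). Nucleolin (NCL), an abundant RNA-binding scaffold, rose from 358 and 428 to 674 and 598 CPM (0.78, SE 0.12). DDX21, an RNA helicase, rose from 170 and 203 to 334 and 329 CPM (0.90), and NOP16 from 74.2 and 61.8 to 147 and 143 CPM (1.01). The rises of FBL, NHP2 and NCL were below the median of the 35 genes, and none of their groups overlapped. NPM1, the nucleolar chaperone nucleophosmin, was at 2704 and 1952 CPM without EGF and 2878 and 2377 CPM with it (0.16, SE 0.10, adjusted p = 0.25, but 0.31 and called higher with library totals), and its groups overlapped. The other genes not called were GRWD1, a histone-binding assembly factor (0.19), WDR12 of the PeBoW complex (0.26), the polymerase I subunit POLR1B (0.75) and the rRNA methyltransferase NOP2. POLR1A was not called either, and its libraries went opposite ways, from 8.43 to 16.5 CPM in library 1 and from 22.1 to 9.94 CPM, on 5 and 7 UMIs, in library 2. Without library 1 of the unstimulated cells, which leaves the 29 cells of library 2, the number called fell to 9, and without library 1 of the 15 h cells it was 18. The deeper cells of stimulated samples, with medians of 12164.5 and 8400 UMIs against 7975 and 7024, moved with this comparison, and with every cell thinned to 6000 UMIs 21 genes were called higher.

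From 15 h on few of the 35 genes changed with EGF alone. At 20 h against 15 h 1 of the 35 genes was lower and 0 were higher (background 1.66% and 3.44%), namely RRS1, a large subunit assembly factor, which went from 92.7 and 76.7 to 71.4 and 59.1 CPM (-0.41, adjusted p = 0.032). The call was lost without the library block (adjusted p = 0.41) and when scaled by library totals (0.082), as with DESeq2 (0.16). It also went without library 1 of the 15 h cells and without either library of the 20 h cells. At 30 h against 20 h 3 genes were higher and 0 lower (background 4.51% and 3.27%). PPAN, a large subunit factor, rose from 35.5 and 41.6 to 54.6 and 75.9 CPM (0.74, adjusted p = 6.4e-06). The helicase DDX10 (0.42) and NOP16 (0.34), of the small and the large subunit pathway, were called as well. Their groups did not overlap, but without the library block 0 of the 3 were called, with adjusted p = 0.086 for PPAN, and without library 2 of either group 1 was called. Both sums at 30 h lay above both at 20 h in 10 of the 35 genes, against 19.9% of all tested genes. PPAN shares its strand and part of its span with P2RY11 and with a readthrough gene that joins both, so reads could be shared between them.

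**Figure D1:**
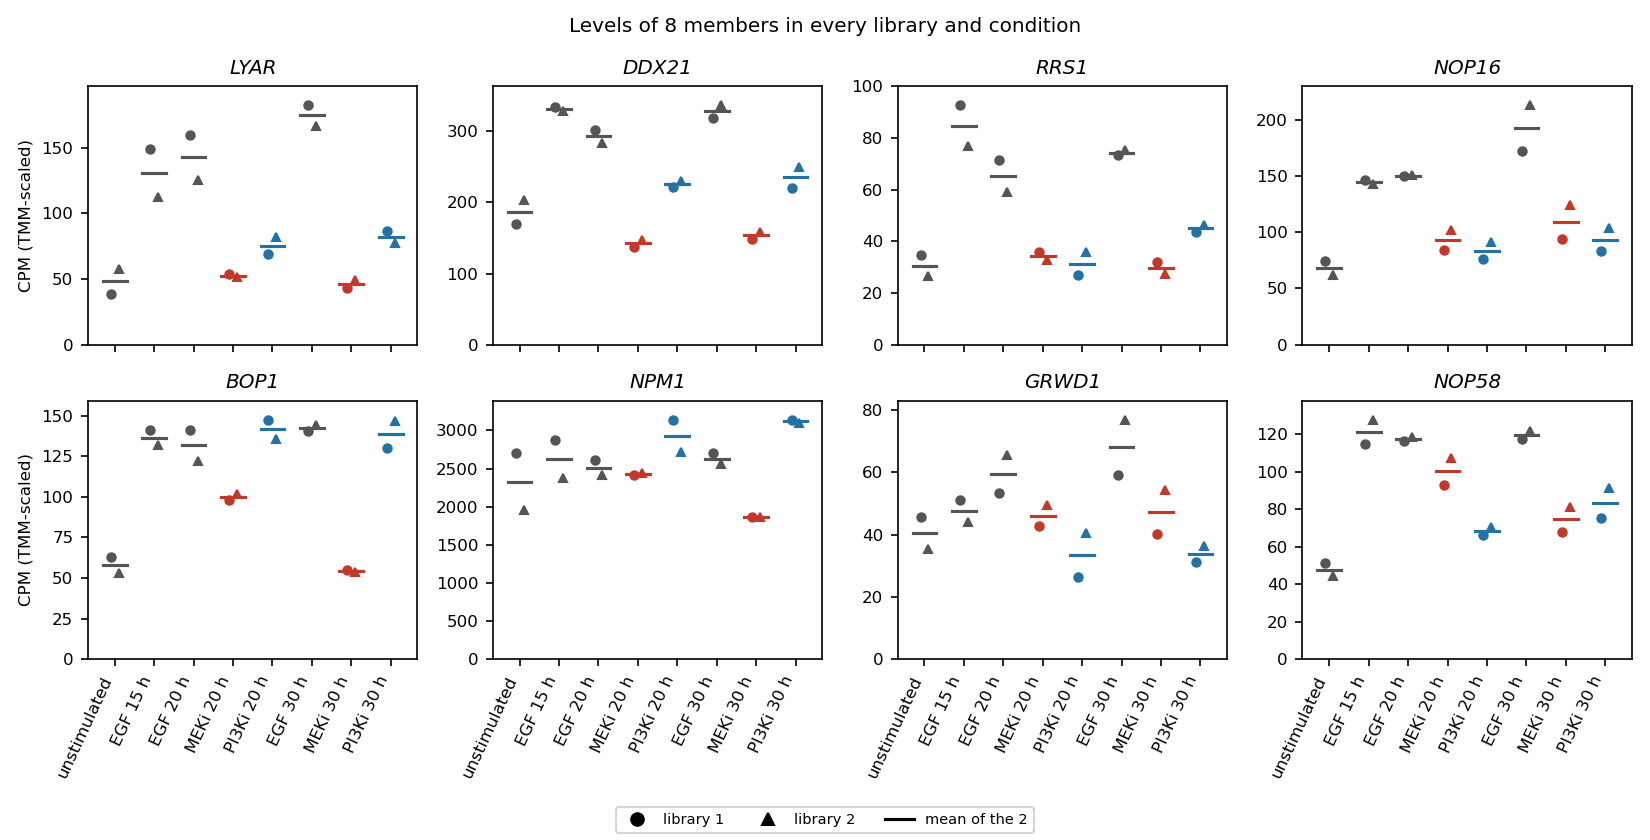
Composition-scaled CPM (y axis, linear from 0) of 8 genes in the 8 conditions (x axis), with a circle for library 1, a triangle for library 2 and a line at their mean, in grey without inhibitor, red with the MEK inhibitor and blue with the PI3K inhibitor. LYAR at 30 h sits at 42.9 and 49.3 CPM with the MEK inhibitor against 182 and 167 CPM with EGF alone, while BOP1 with the PI3K inhibitor stays between 130 and 148 CPM.

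The MEK inhibitor lowered most of the factors by 20 h. At 20 h 23 of the 35 genes were lower than with EGF alone and 0 were higher (background 7.15% lower and 4.80% higher), with a median log2 change of -0.50 against 0.01 over all tested genes. LYAR fell from 160 and 126 CPM to 53.6 and 51.3 CPM (-1.45, SE 0.13, adjusted p = 7.7e-13), a 2.74-fold drop. DDX21, an RNA helicase of the nucleolus that promotes rRNA transcription and processing, fell from 302 and 284 to 137 and 148 CPM (-1.05, SE 0.10, adjusted p = 3.6e-12). RRS1 fell from 71.4 and 59.1 to 35.7 and 32.6 CPM (-0.95, SE 0.14), and RRP9, the U3 snoRNP protein of early small subunit processing, from 69.7 and 64.3 to 31.1 and 38.3 CPM (-0.94, SE 0.13). In all 4 genes both inhibited sums lay below both sums with EGF alone, as in 28 of the 35 genes and 23.3% of all tested genes.

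The large subunit group was lower in 10 of 12 genes at 20 h, among them NOP16 (-0.71), RRP1B (-0.66) and the nucleostemin gene GNL3 (-0.56). In the small subunit group 5 of 9 genes were lower, including RRP12 (-0.89), DDX10 (-0.80) and WDR43 (-0.74), a processome protein at 78.8 and 82.2 CPM with EGF alone and 43.9 and 52.5 CPM with the inhibitor. Among snoRNP genes 1 of 3 box C/D and 2 of 4 box H/ACA genes were lower, the scaffold NOP56 (-0.41), the pseudouridine synthase DKC1 (-0.59) and GAR1 (-0.75). POLR1B, the second largest subunit of RNA polymerase I, fell from 17.8 and 17.6 to 11.7 and 8.45 CPM (-0.84, SE 0.22). NPM1, FBL and NHP2 were not called, and their 95% intervals for the log2 change were narrow: -0.23 to 0.14 for NPM1, -0.20 to 0.16 for FBL and -0.16 to 0.20 for NHP2. Without the library block 10 genes were called lower, and calls such as that of BOP1 (-0.41) were lost (adjusted p = 0.14). Without library 1 of the cells with EGF alone 11 were called, and without library 2 of the inhibited cells 15.

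At 30 h nearly the whole set was lower with the MEK inhibitor. Of the 35 genes 34 had fallen and 0 had risen against EGF alone (background 19% lower and 18.9% higher), and the median log2 change was -0.87 against 0.01 over all tested genes. LYAR was at 42.9 and 49.3 CPM against 182 and 167 CPM (-1.88, SE 0.11, adjusted p = 1.5e-19), a 3.69-fold drop. BOP1, the central scaffold of the PeBoW complex of large subunit assembly, was at 55.0 and 53.6 CPM against 141 and 144 CPM (-1.39, SE 0.10, adjusted p = 2.9e-16). RRS1 was at 32.1 and 27.5 CPM against 73.3 and 75.3 CPM (-1.34, SE 0.12). The 2 libraries differed little beside these gaps. NOLC1, a phosphoprotein that binds snoRNPs and links them to RNA polymerase I, was at 31.9 and 31.5 CPM against 72.3 and 77.3 CPM (-1.25, SE 0.12).

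Every role took part at 30 h. In the small subunit group 9 of 9 genes were lower, from UTP20 (-1.14), RRP12 (-1.08), TSR1 (-1.04) and RRP9 (-1.01) to NAT10 (-0.58). In the large subunit group 12 of 12 were lower, from BOP1 to WDR12 (-0.48) with NOP2, which had few UMIs, set aside. In G1-called cells NAT10 (0.23) and WDR12 (0.095) had the opposite sign, and their calls were lost without the library block (NAT10, adjusted p = 0.066) or with DESeq2 (WDR12, 0.0501). NOP16 was at 94.4 and 125 CPM against 172 and 213 CPM (-0.81, SE 0.10), and MRTO4, which holds the place of a stalk protein during assembly, at 65.8 and 69.6 CPM against 135 and 141 CPM (-1.02, SE 0.10). All 3 box C/D and 4 box H/ACA genes fell, NOP56 the furthest (-0.93) and NHP2 the least (-0.26, SE 0.09, adjusted p = 0.016). NHP2 was at 373 and 339 CPM against 472 and 386 CPM, so its groups did not overlap but lay close. Both inhibited sums lay below both sums with EGF alone in all 35 genes, against 30.3% of all tested genes. Among the scaffolds NCL fell from 661 and 623 to 355 and 343 CPM (-0.88, SE 0.09) and NPM1 from 2703 and 2558 to 1864 and 1868 CPM (-0.49, SE 0.09, adjusted p = 3.0e-05). The 1 gene not called was POLR1A, the largest subunit of RNA polymerase I, at 12.8 and 10.1 CPM against 13.5 and 13.4 CPM (-0.27, 95% interval -0.67 to 0.13). Leaving out any 1 of the 4 sums compared left 30 to 33 genes called, and 28 were called without the library block, where NPM1 (adjusted p = 0.089) and GRWD1 (0.074) were lost.

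**Figure D2:**
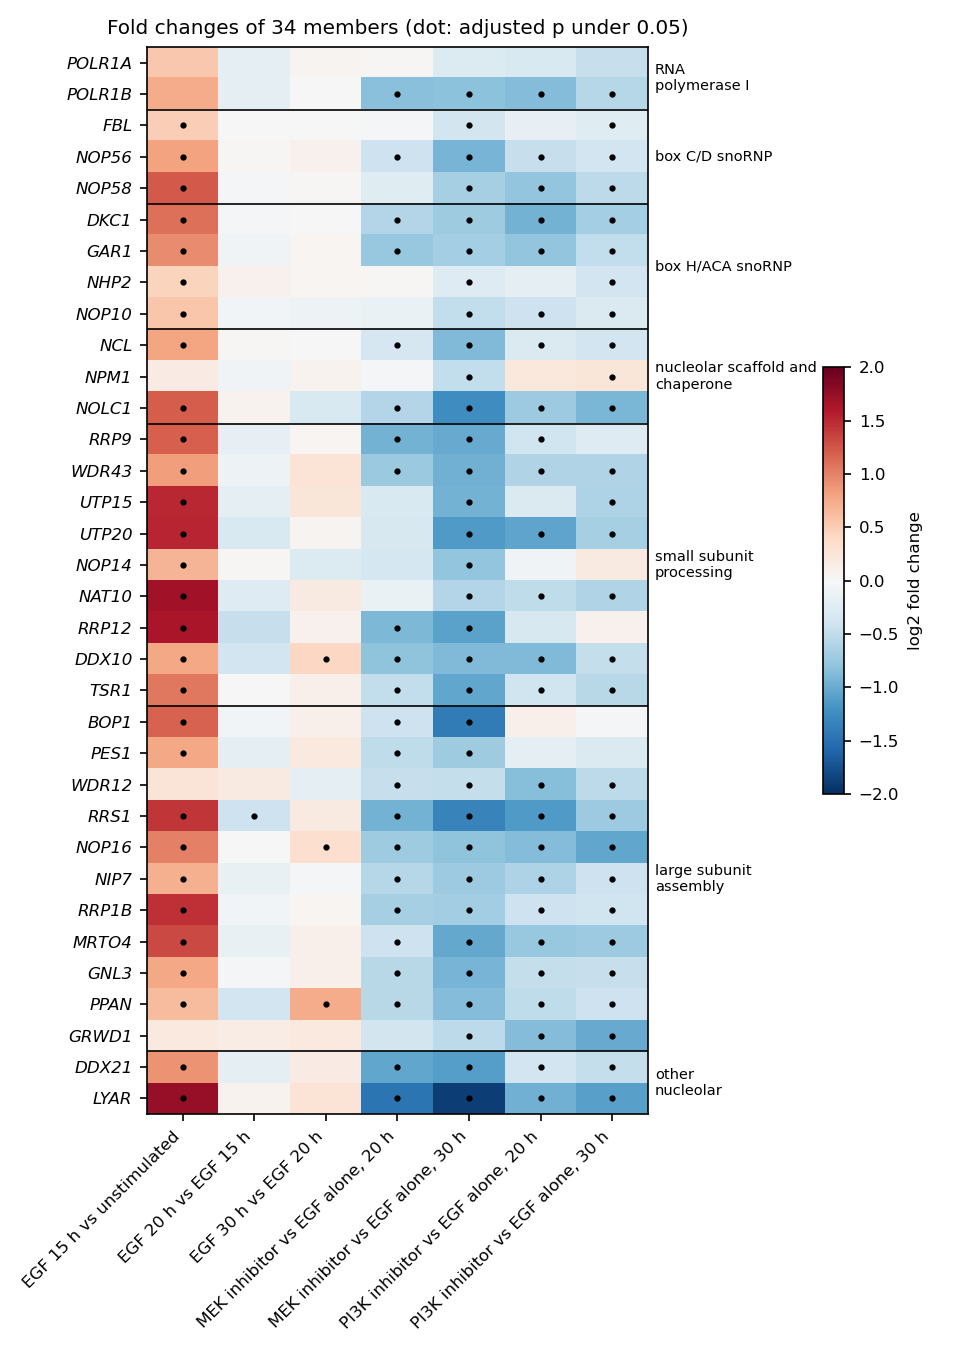
Log2 fold changes (colour, from -2 in blue to 2 in red) of 34 of the 35 genes (rows, grouped by role) in 7 comparisons (columns), with a dot where the adjusted p was under 0.05; NOP2, with few UMIs, is left out. The column of EGF at 15 h is red throughout, and that of the MEK inhibitor at 30 h is blue throughout, from -1.88 for LYAR to -0.26 for NHP2.

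The effect of the MEK inhibitor was larger at 30 h than at 20 h for part of the set. The difference between the effects was below 0 and called for 7 genes and above 0 for 0 (background 2.66% and 2.92%). BOP1 was lowered to 98.3 and 102 CPM at 20 h and to 55.0 and 53.6 CPM at 30 h, while EGF alone held it between 122 and 144 CPM (difference -0.99, SE 0.15, adjusted p = 4.3e-06). NPM1 was at 2410 and 2448 CPM at 20 h, close to the 2613 and 2410 CPM of EGF alone, and at 1864 and 1868 CPM at 30 h (-0.45, SE 0.13). The others were UTP20 (-0.81), NOLC1 (-0.66), MRTO4 (-0.60), NCL (-0.53) and NOP56 (-0.51). LYAR (-0.43, adjusted p = 0.14) and DDX21 (-0.05, 95% interval -0.31 to 0.21) did not pass. Only BOP1 passed without the library block, and when any 1 of the 8 sums in this contrast was left out 5 or fewer did. The number was 1 without library 2 of EGF alone at 30 h, 2 without library 2 of EGF alone at 20 h, and 4 and 3 without libraries 1 and 2 of the MEK inhibitor at 20 h. In G1-called cells, with fewer cells in each sum, 0 passed, and all 7 differences kept their sign, from -0.82 (SE 0.45) for UTP20 and -0.66 (SE 0.23) for BOP1 to -0.28 (SE 0.15) for NPM1. These 7 genes had been picked in sums that include the same cells. Over all testable members the median difference was -0.02 in G1-called cells, with 18 of 34 below 0. In all cells it was -0.34, with 33 of 35 below 0. In all cells 14 passed with library totals, which move the median of all genes in this contrast by -0.10.

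The PI3K inhibitor also lowered most of the factors by 20 h. Of the 35 genes 25 were lower than with EGF alone and 0 were higher (background 11.9% and 11.4%), with a median log2 change of -0.48 against 0.004 over all tested genes. RRS1 fell from 71.4 and 59.1 to 27.0 and 35.6 CPM (-1.13, SE 0.14), and UTP20 from 24.4 and 25.9 to 10.7 and 14.4 CPM (-1.05, SE 0.20). LYAR went to 68.9 and 81.7 CPM (-0.96, SE 0.12), and DKC1 from 152 and 169 to 75.1 and 93.6 CPM (-0.94, SE 0.11). None of these groups overlapped, and the inhibited sums lay wholly below in 29 of the 35 genes and 26.6% of all tested genes. Next came DDX10 (-0.88), NOP16 (-0.87), POLR1B (-0.87), GRWD1 (-0.86) and WDR12 (-0.85).

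By role 1 of 2 polymerase I genes, 2 of 3 box C/D, 3 of 4 box H/ACA, 2 of 3 scaffold, 6 of 9 small subunit, 9 of 12 large subunit and both other nucleolar genes were lower at 20 h. BOP1 was at 148 and 136 CPM against 141 and 122 CPM (0.10, 95% interval -0.11 to 0.30). NOP14, a small subunit factor, was at 52.3 and 50.5 CPM against 56.8 and 49.6 CPM (-0.06, interval -0.34 to 0.21). NPM1 was at 3130 and 2714 CPM against 2613 and 2410 CPM (0.22, adjusted p = 0.091). The number called was 15 without the library block and 14 without library 1 of the cells with EGF alone.

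At 30 h 27 genes were lower with the PI3K inhibitor and 1 was higher, against a background of 20% lower and 19.7% higher, and the median log2 change was again -0.48, against 0.01 over all tested genes. LYAR was at 86.8 and 77.6 CPM against 182 and 167 CPM (-1.09, SE 0.11, adjusted p = 3.6e-12), and NOP16 at 83.3 and 104 CPM against 172 and 213 CPM (-1.04, SE 0.10). GRWD1 was at 31.3 and 36.4 CPM against 59.1 and 76.9 CPM (-1.01, SE 0.12). For each of these genes the inhibited sums lay well below the lowest sum with EGF alone. Both inhibited sums lay below both others in 30 of the 35 genes and 30.7% of all tested genes. NOLC1 followed at 36.1 and 42.9 CPM against 72.3 and 77.3 CPM (-0.91, SE 0.12). The gene that rose was NPM1, at 3140 and 3095 CPM against 2703 and 2558 CPM (0.25, SE 0.09, adjusted p = 0.032), but with library totals its change was 0.01 (adjusted p = 0.91) and without the library block its adjusted p was 0.40. Scaling by library totals moved the median of all genes to -0.22 here, with 33.1% of them lower, and called 31 of the 35 genes lower and 0 higher. The same scaling moved the median of all genes to -0.16 for the MEK inhibitor at 30 h, with 29.2% lower and 34 of the 35 genes called lower, and to 0.21 for EGF at 15 h, with 31 of the 35 called higher.

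Among genes not called at 30 h, BOP1 was at 130 and 147 CPM against 141 and 144 CPM (-0.04, 95% interval -0.22 to 0.15), although with library totals it was called lower (-0.27, adjusted p = 0.013). RRP12 was at 18.9 and 25.5 CPM against 22.4 and 20.5 CPM (0.09, interval -0.25 to 0.43), and NOP14 at 54.7 and 46.8 CPM against 45.1 and 43.6 CPM (0.18, interval -0.07 to 0.43). These 3 genes had overlapping groups or, for NOP14, neighbouring ones. The remaining 4 were POLR1A (-0.46), NOP2 (-0.83), PES1, the partner of BOP1 (-0.30), and RRP9 (-0.26). With library totals POLR1A (-0.70), PES1 (-0.53) and RRP9 (-0.49) were called lower too. For the PI3K inhibitor the difference between its effects at 30 h and 20 h was called by edgeR and by DESeq2 for 0 of the 35 genes (background 3.25% and 2.40%), with 0 lower and 1 higher at an unadjusted p under 0.05. The number called at 30 h was 16 without the library block, 18 without library 2 of the cells with EGF alone and, without library 2 of the inhibited cells, 19.

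Set directly against each other at 20 h, the inhibitors left the factors at a similar median level with members on both sides. With the MEK inhibitor 5 genes were lower and 6 higher than with the PI3K inhibitor (background 10.4% and 11.2%), and the median difference was 0.03. DDX21 (137 and 148 against 222 and 230 CPM, -0.67, SE 0.10), RRP9 (-0.55), BOP1 (98.3 and 102 against 148 and 136 CPM, -0.51), LYAR (-0.49) and NPM1 (-0.26) were lower with the MEK inhibitor. UTP20 (20.2 and 20.2 against 10.7 and 14.4 CPM, 0.73), NOP58 (93.2 and 107 against 66.1 and 70.3 CPM, 0.55, SE 0.12), GRWD1 (0.50), DKC1 (0.36), MRTO4 (0.34) and NOP10 (0.28) were higher. The NPM1 call was lost with library totals (adjusted p = 0.074) and without the library block (0.45). NOP58 is a core protein of box C/D snoRNPs, so both kinds of snoRNP had a gene on this side. The count rested on all 4 sums, since leaving out any 1 left 3 to 6 genes called, and without the library block 4 were called. With library totals the split was 4 lower and 8 higher.

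**Figure D3:**
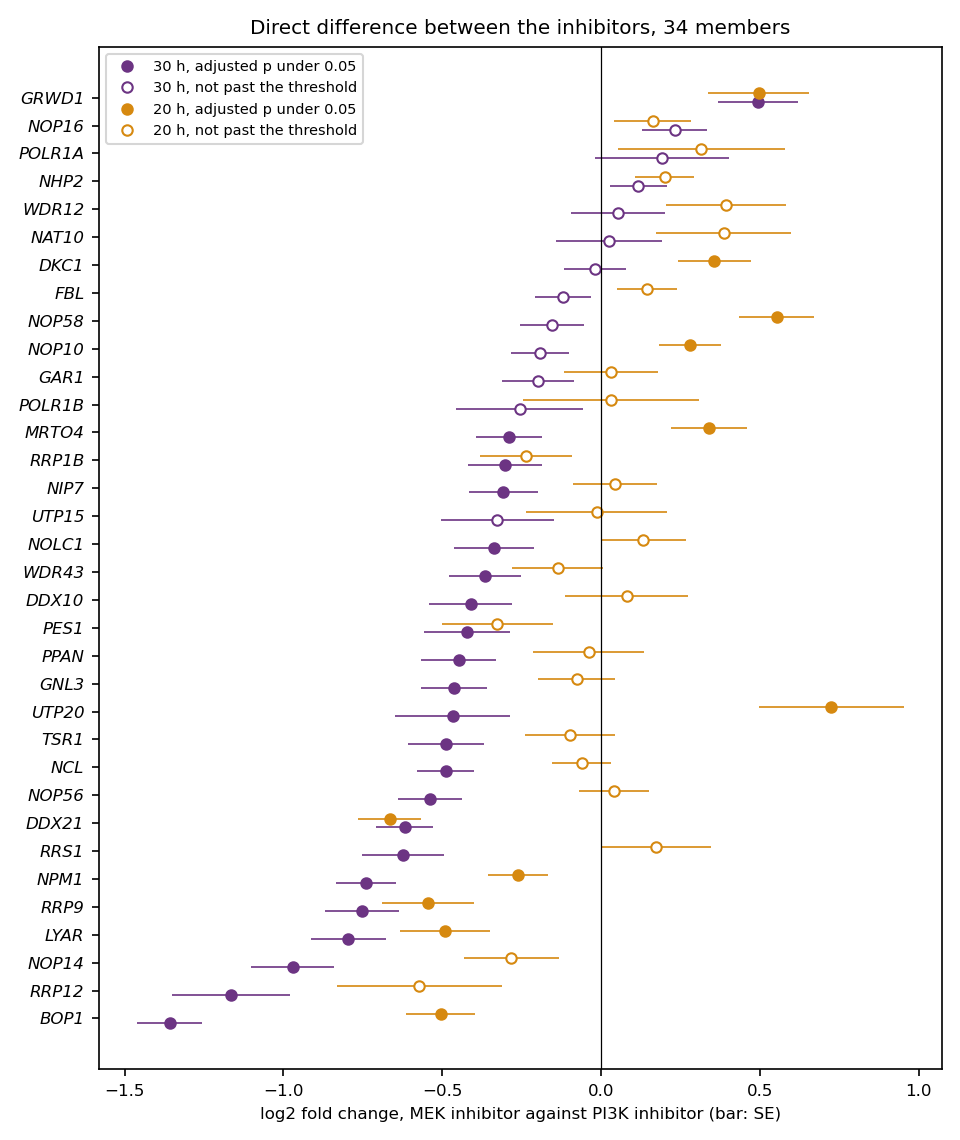
Log2 difference between cells with the MEK inhibitor and cells with the PI3K inhibitor (x axis; bars are SE) for 34 genes (rows, ordered by the value at 30 h), in orange at 20 h and purple at 30 h, filled where the adjusted p was under 0.05. The purple points run from -1.36 for BOP1 to 0.49 for GRWD1, and fewer of them than of the orange points lie right of 0.

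At 30 h the factors were mostly lower with the MEK inhibitor than with the PI3K inhibitor. The direct comparison called 21 genes lower and 1 higher (background 20.3% and 21.2%), with a median difference of -0.37. BOP1 was at 55.0 and 53.6 CPM against 130 and 147 CPM (-1.36, SE 0.10, adjusted p = 2.3e-16), a 2.56-fold gap. RRP12 was at 9.04 and 10.8 CPM against 18.9 and 25.5 CPM (-1.17, SE 0.18), and NOP14 at 22.6 and 27.2 CPM against 54.7 and 46.8 CPM (-0.97, SE 0.13). These 3 genes were called lower with the MEK inhibitor and were not called with the PI3K inhibitor, and the direct test puts a size on that difference. LYAR (-0.80), RRP9 (-0.75), NPM1 (-0.74), RRS1 (-0.62) and DDX21 (-0.62) followed. The gene higher with the MEK inhibitor was GRWD1, at 40.2 and 54.3 CPM against 31.3 and 36.4 CPM (0.49, SE 0.13, adjusted p = 0.0011), lost without the library block (0.090).

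By role, in the direct comparison at 30 h, 7 of 9 small subunit genes, 8 of 12 large subunit genes, 3 of 3 scaffold genes and both other nucleolar genes were lower with the MEK inhibitor, but 1 of 3 box C/D, 0 of 4 box H/ACA and 0 of 2 polymerase I genes were. For DKC1 the difference was -0.02 (95% interval -0.22 to 0.18), and for NOP58 -0.15 (interval -0.36 to 0.05). Whether the roles themselves differ was not tested. UTP20 and MRTO4 were called in opposite directions at the 2 times, higher with the MEK inhibitor at 20 h and lower at 30 h (UTP20 -0.47, MRTO4 -0.29). Both calls at 30 h were lost with library totals (adjusted p = 0.065 for UTP20 and 0.070 for MRTO4), without the library block (0.094 and 0.15) and with DESeq2 (0.11 and 0.067). At 20 h both were lost without the block (0.060 and 0.16), and MRTO4 with DESeq2 (0.056). UTP20 was at 10.8 and 12.6 CPM with the MEK inhibitor and at 18.1 and 15.3 CPM with the PI3K inhibitor at 30 h. The number called was 12 without the library block, 14 without library 2 of the PI3K inhibitor cells and 14 with every cell thinned to 6000 UMIs, while library totals gave 16 lower and 2 higher.

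Against unstimulated cells the MEK inhibitor at 30 h left 1 gene lower, NPM1 (-0.33, adjusted p = 0.012), and 3 higher, RRP1B (0.76), NOP16 (0.54) and NOP58 (0.53), with a background of 8.27% lower and 9.88% higher and a median of 0.07. For LYAR the difference was 0.20 (95% interval -0.26 to 0.65), for DDX21 -0.23 (-0.48 to 0.03), for BOP1 -0.17 (-0.54 to 0.20) and for RRS1 -0.15 (-0.64 to 0.34). These intervals are wide, and 1 of the unstimulated sums held 29 cells. Without that sum 2 genes were called, and 1 was called without the library block or without library 2 of the inhibited cells, while 0 were called without library 1 of the unstimulated cells. The PI3K inhibitor at 30 h left 12 genes higher than in unstimulated cells and 0 lower (background 10.7% and 10.5%), with a median of 0.44. RRP12 (18.9 and 25.5 against 5.90 and 22.1 CPM, 1.34), BOP1 (130 and 147 against 63.2 and 53.0 CPM, 1.19, SE 0.17), RRP1B (56.7 and 51.5 against 27.8 and 17.7 CPM, 1.06) and LYAR (86.8 and 77.6 against 38.8 and 57.4 CPM, 0.99, SE 0.21) led them. The number was 6 without the library block and 2 without library 1 of the unstimulated cells. Both comparisons use the same unstimulated cells.

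Added together, the 35 genes made up 0.417% and 0.493% of all UMIs in unstimulated cells and 0.699% and 0.720% at 15 h after EGF. At 20 h it stood at 0.698% and 0.726% with EGF alone, and by 30 h at 0.711% and 0.806%. The MEK inhibitor brought it to 0.543% and 0.605% at 20 h and to 0.392% and 0.453% at 30 h, and the PI3K inhibitor to 0.567% and 0.597% and to 0.546% and 0.613%. So, over all 35 genes, the MEK inhibitor shares at 30 h overlapped those of unstimulated cells across libraries but lay below them within each library. The PI3K inhibitor shares lay between those of unstimulated and stimulated cells. NPM1 and NCL supplied a large part of these UMIs, and without them the shares at 30 h were 0.371% and 0.438% for EGF alone, 0.192% and 0.228% under MEK inhibition and 0.225% and 0.269% under PI3K inhibition. Unstimulated cells were then at 0.163% and 0.241%. Without NPM1 and NCL, the PI3K inhibitor shares at 30 h therefore overlapped those of unstimulated cells and of the MEK inhibitor only across libraries. Within each library they lay above both.

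In molecules, a cell held a mean of 34.1 and 36.3 UMIs of the 35 genes without EGF and 109 and 120 UMIs at 30 h after EGF. With the MEK inhibitor at 30 h it held 50.0 and 62.5 UMIs, and with the PI3K inhibitor 67.2 and 76.9 UMIs. The depth of the cells moved in the same direction, with median UMIs per cell of 16000 and 15371 for EGF alone, 12216 and 13505.5 under MEK inhibition and 11952 and 11650 under PI3K inhibition. More capture and more RNA per cell cannot be told apart in such counts. After thinning every cell to 6000 UMIs, 30 of the 35 genes were called lower with the MEK inhibitor at 30 h, and with the PI3K inhibitor 25 were called lower and 1 higher.

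**Figure D4:**
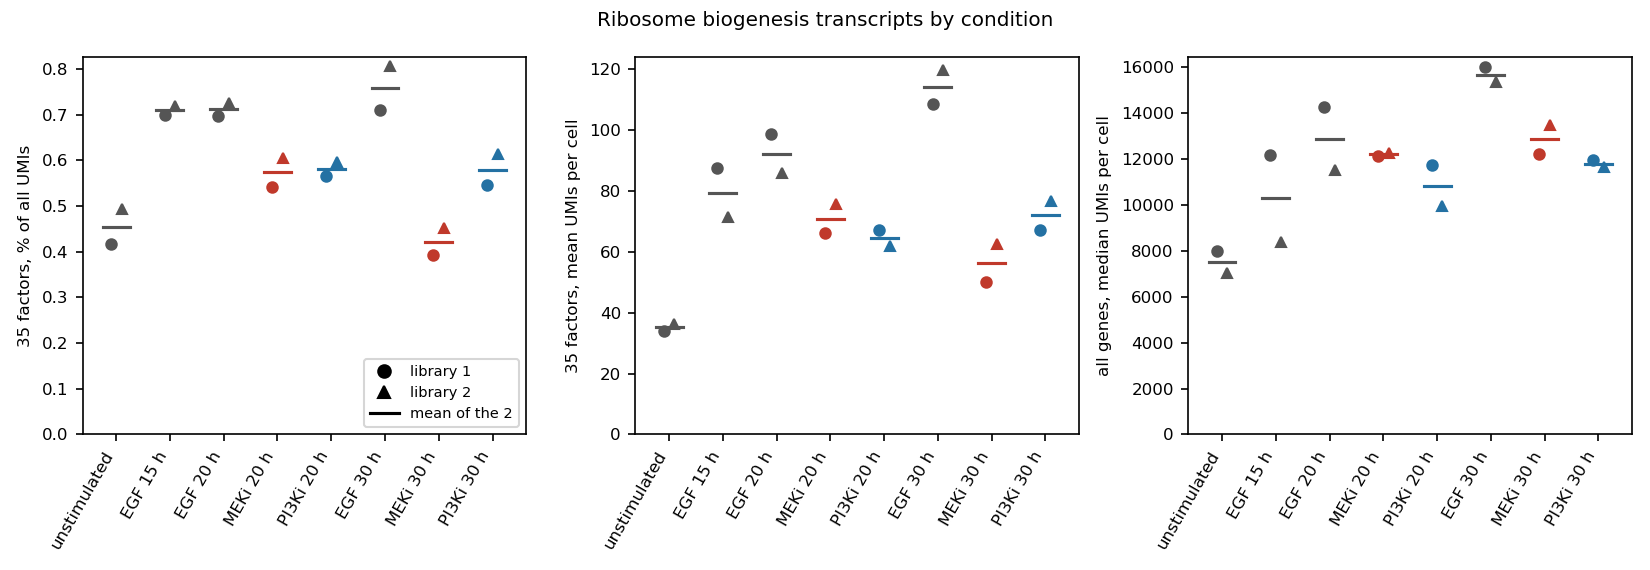
Summed transcripts of the 35 genes by condition (x axis), as percent of all UMIs (left), as mean UMIs per cell (middle) and beside the median UMIs per cell of all genes (right), with a circle for library 1, a triangle for library 2 and a line at their mean. The MEK inhibitor shares at 30 h, 0.392% and 0.453%, lie near the unstimulated ones, slightly below them within each library. The cells' depth at that time, 12216 and 13505.5 UMIs, lies above that of unstimulated cells.

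The share of cells called G1 by cell cycle scores also moved with the conditions. At 30 h it was 30% and 8.56% for EGF alone, 65.6% and 33.8% under MEK inhibition and 88.4% and 75.4% under PI3K inhibition. With EGF alone at 30 h the median share per thinned cell was 0.750% and 0.817% in G2/M-called cells and 0.567% and 0.608% in G1-called cells. G2/M-called cells were also above G1-called cells in both libraries with the MEK inhibitor at 20 h (0.617% and 0.617% against 0.483% and 0.533%) and 30 h (0.417% and 0.467% against 0.333% and 0.383%), and with the PI3K inhibitor at 30 h (0.558% and 0.633% against 0.533% and 0.600%). At 20 h with EGF alone both classes were at 0.683% and 0.700%, and with the PI3K inhibitor at that time the libraries differed in direction. Among G1-called cells alone the medians at 30 h were 0.333% and 0.383% under MEK inhibition and 0.533% and 0.600% under PI3K inhibition. Thus the MEK inhibitor medians lay below those of EGF alone within G1 in both libraries. The PI3K inhibitor medians were also below within each library, by smaller gaps, at 0.533% against 0.567% and 0.600% against 0.608%. Whether gaps of that size exceed the spread between cells was not tested.

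Refitted on sums of G1-called cells, with 69 and 28 cells of EGF alone at 30 h and 34 of the genes testable, 20 genes were lower with the MEK inhibitor at 30 h and 0 higher (background 5.81% lower and 6.84% higher), with a median of -0.75. LYAR (-1.60, SE 0.20), BOP1 (-1.12, SE 0.18) and DDX21 (-0.98, SE 0.14) were among them. With the PI3K inhibitor at 30 h 6 were lower and 1 higher (background 7.01% and 6.58%), with a median of -0.20. There LYAR was at -0.33 (adjusted p = 0.21), while NOLC1 (-1.01) and GRWD1 (-0.87) were called lower and NPM1 higher (0.37, adjusted p = 0.012). The direct comparison of the inhibitors in G1-called cells at 30 h called 23 lower with the MEK inhibitor and 1 higher (background 16.6% and 18.3%). At 20 h the G1-called cells gave 20 lower with the MEK inhibitor (background 4.12%) and 20 lower with the PI3K inhibitor (7.17%), with 0 higher in both (2.43% and 5.84%). In the same cells 25 genes were higher 15 h after EGF (background 13.1%), and against unstimulated cells 1 was higher and 0 lower with the MEK inhibitor at 30 h (6.13% and 4.84%) and 9 were higher with the PI3K inhibitor (9.66%). Between the inhibitors at 20 h 2 were lower and 2 higher with the MEK inhibitor (7.14% and 7.37%). Of the cells called 19.4% lay within 0.05 of the score at which a phase is called. Free RNA in the droplets can enter such scores too, and its part was not tested.

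**Figure D5:**
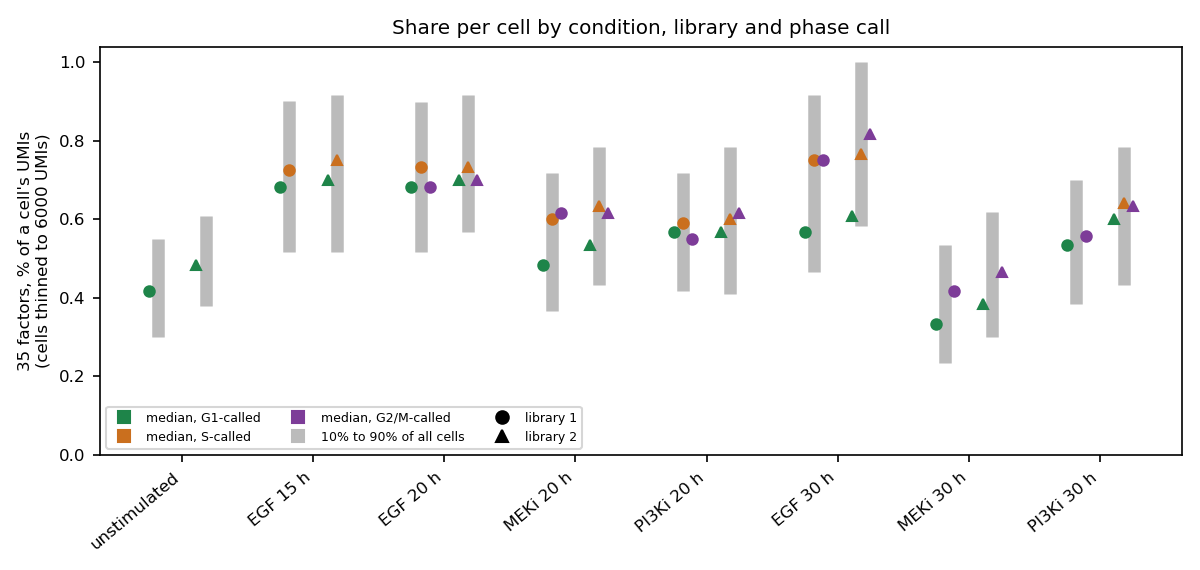
Share of a cell's UMIs from the 35 genes (y axis, percent, cells thinned to 6000 UMIs) by condition (x axis) and library (circle 1, triangle 2). Grey bars span the 10% to 90% quantiles of all cells, and points are medians of G1-called (green), S-called (orange) and G2/M-called cells (purple); with EGF alone at 30 h the G2/M medians of 0.750% and 0.817% stand above the G1 medians of 0.567% and 0.608%.

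A few members call for care in reading. NOP2 had 0 UMIs in both unstimulated sums and at most 15 in any other, so its fitted change with EGF is no measure of a fold. Its change with the MEK inhibitor at 30 h was -1.50 (SE 0.56, adjusted p = 0.028), from 9 and 15 UMIs to 1 and 10. That call was lost without the library block (adjusted p = 0.081) and with DESeq2 (0.10). NOP2 lies on chromosome 12 (6556863 to 6568691, GRCh38) and is overlapped on its own strand by another protein-coding gene model. Of the 35 genes 14 overlap a gene on the opposite strand, NOP14 and its antisense RNA among them, and the labels do not say whether the counting used strand. NPM1 (chromosome 5, 171387116 to 171411137) has processed pseudogenes elsewhere in the genome, and how reads shared with them were counted is not given. Within the span of 8 of the genes lie snoRNA genes, from 2 in DKC1 to 6 in GNL3, so that these genes carry guide RNAs of the pathway as well as a protein of it. LYAR lies on chromosome 4 (4267701 to 4290169), DDX21 on chromosome 10 (68956128 to 68985073), BOP1 on chromosome 8 (144262102 to 144291370), NOP16 on chromosome 5 (176383938 to 176388975) and GRWD1 on chromosome 19 (48445773 to 48457022). All 5 are protein-coding, and the values above cover each gene as a whole.

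A wider list of 130 other ribosome biogenesis symbols, 120 of them tested, had medians of the same sign. EGF at 15 h raised 58 and lowered 3 (median 0.66), the MEK inhibitor lowered 47 and raised 1 at 20 h (-0.37) and lowered 87 and raised 1 at 30 h (-0.52), and the PI3K inhibitor lowered 42 and raised 4 at 20 h (-0.22) and lowered 45 and raised 9 at 30 h (-0.22). The backgrounds are those given above for each comparison. This list, too, was chosen with earlier results of these data known. TAF1A, a subunit of the polymerase I selectivity factor, fell by 1.54 and 1.74 with the MEK inhibitor at 20 h and 30 h and by 1.55 and 1.46 with the PI3K inhibitor, and TCOF1, the treacle protein that recruits polymerase I, fell by 1.53 with the MEK inhibitor and by 1.40 with the PI3K inhibitor at 30 h. NOP53, a late large subunit factor, went the other way, at -0.89 with EGF at 15 h and 0.29 and 0.26 with the MEK inhibitor at 20 h and 30 h and 0.59 with the PI3K inhibitor at 20 h, and NOB1, the nuclease that finishes small subunit rRNA, rose with the PI3K inhibitor (0.50 at 20 h and 0.80 at 30 h). EFL1, a GTPase of large subunit maturation, was at -1.50 with the MEK inhibitor at 20 h and 1.33 with the PI3K inhibitor at 30 h. With EGF alone its mean fell from 11.8 CPM at 20 h to 6.87 CPM at 30 h (-0.78). At these times it was at 4.10 and 6.26 CPM with the MEK inhibitor and at 14.5 and 17.0 CPM with the PI3K inhibitor. WDR3, a small subunit processome protein, rose by 2.62 with EGF.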

How the data were processed

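Single-cell RNA was measured in MCF10A cells of 8 conditions in 2 libraries. The deposited count tables hold whole UMI counts per gene and cell, and the authors' tools were Cell Ranger 3.0.2 and Seurat with GRCh38, per the submitters' processing notes. Conditions were taken from the authors' deposited tag call for each barcode. Tag calls marked 4848 of 8641 barcodes in library 1 and 2478 of 6161 in library 2 as doublets, and the deposited tables hold only cells with a single tag, so no cell was removed here and no other doublet caller was run. They held 4837 cells of 3141 to 31090 UMIs.

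Counts were summed by library and condition into 16 sums. The genes in both tables were filtered with filterByExpr, scaled by TMM for composition and tested by quasi-likelihood in edgeR 4.0.16 (R 4.3.3, limma 3.58.1), with condition and library as terms, and p-values were adjusted by Benjamini-Hochberg over 11147 genes. The library term rests on the labels, which name the libraries as shared by all conditions, and on a check: deviations of sums of the same library correlated in all 28 pairs of conditions (0.281 to 0.677). Cell cycle phase was called with scanpy 1.11.5 after thinning cells to 6000 UMIs, which left out 341 shallower cells. Alternatives were DESeq2 1.42.0, other scalings, no filter, no library block, G1-called or thinned cells and leaving out single sums. The fit was tested on simulated data.

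The members and lists were chosen with earlier results of these data known. Named genes are the member with the highest mean in each role, the 4 largest called falls and rises per comparison with the same sign in both libraries, and members that went against the majority. Genes named beyond these to fill out a role were chosen after their values were seen. Of the other ribosome biogenesis genes, those with the 2 largest called changes in a direction were eligible.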

Additional observations from a re-analysis of the deposited data

Results flagged for a closer look

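For 7 genes the effect of the MEK inhibitor differed between 20 h and 30 h in the test of that difference itself (edgeR's quasi-likelihood test, 2 libraries). The log2 difference, 30 h minus 20 h, was -0.99 for BOP1, -0.81 for UTP20, -0.66 for NOLC1, -0.60 for MRTO4, -0.53 for NCL, -0.51 for NOP56 and -0.45 for NPM1. All 7 genes fell further at 30 h. Depth and the share of G1-called cells also differed between these times, and their part in the result was not tested. In G1-called cells alone, with fewer cells in each sum, 0 of the 7 passed and all kept the negative sign, at -0.82 for UTP20, -0.66 for BOP1, -0.49 for NOLC1, -0.46 for MRTO4, -0.43 for NCL, -0.36 for NOP56 and -0.28 for NPM1. The 7 had been picked in sums that include these cells. Over all testable members the median difference was -0.02 in G1-called cells (18 of 34 below 0) and -0.34 in all cells (33 of 35 below 0).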

How the results depend on the processing

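Without the library block, fewer members were called: 10 of 23 with the MEK inhibitor at 20 h, 15 of 25 and 16 of 28 with the PI3K inhibitor at 20 h and 30 h, 4 of 11 and 12 of 22 between the inhibitors at 20 h and 30 h, 1 of 4 and 6 of 12 against unstimulated cells with the MEK and the PI3K inhibitor, 1 of 7 for the difference between the MEK inhibitor effects, and 0 for EGF at 20 h against 15 h and at 30 h against 20 h. Calls over all tested genes fell as well without the block. They went from 1332 to 342 with the MEK inhibitor at 20 h. With the PI3K inhibitor they went from 2607 to 840 at 20 h and from 4428 to 2384 at 30 h. For the difference between the MEK inhibitor effects they went from 622 to 36, and for EGF at 30 h against 20 h from 868 to 165. In G1-called cells, with fewer cells per sum, the numbers of members called were 20 with the MEK inhibitor and 7 with the PI3K inhibitor at 30 h, 4 between the inhibitors at 20 h, 1 for the MEK inhibitor against unstimulated cells, and 0 for the later EGF steps and the difference between the MEK inhibitor effects. With thinned cells they were 6 and 14 between the inhibitors, 2 and 7 against unstimulated cells, 2 for the difference, and 0 and 1 for the later EGF steps. DESeq2 gave 2 for the MEK inhibitor against unstimulated cells and 0 and 1 for the later EGF steps, and library totals gave 14 for the difference and 0 for EGF at 20 h against 15 h. Leaving out 1 of the sums that enter each comparison gave 9 to 29 genes for EGF at 15 h, 0 to 1 and 1 to 3 for the later EGF steps, 11 to 21 and 30 to 33 with the MEK inhibitor, 14 to 23 and 18 to 26 with the PI3K inhibitor, 3 to 6 and 14 to 19 between the inhibitors, 0 to 5 and 2 to 14 against unstimulated cells, 1 to 5 for the difference between the MEK inhibitor effects and 0 for that of the PI3K inhibitor.

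Directions turned for NOP14 with EGF at 15 h without library 1 of the unstimulated cells (-0.16, against 0.94 without library 2), and for NOP56 with the PI3K inhibitor against unstimulated cells (-0.0060 without library 1 of the unstimulated cells and 0.78 without library 2). The median over the members turned, near 0, between the inhibitors at 20 h (0.046 without replicate 1 and -0.0055 without replicate 2) and for the difference between the PI3K inhibitor effects (-0.0071 without replicate 1 and 0.091 without replicate 2). In G1-called cells they turned for DDX10 (-0.066) and NOP16 (-0.40) with EGF at 30 h against 20 h, for NAT10 (0.23) and WDR12 (0.10) with the MEK inhibitor at 30 h, and for FBL (0.045), NAT10 (0.084) and WDR12 (0.021) with the PI3K inhibitor at 30 h. The cause was not tested. Depth limits the low genes most, above all in the unstimulated sum of library 2.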
